A study of Mus musculus with 14 samples.

Results

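The genes described here encode the protein components of the mitochondrial ribosome whose symbols begin with Mrpl or Mrps followed by a number. The names stand for the large and the small subunit, but Mrps18a and Mrps30 are known as proteins of the large one and are counted there. Pseudogene rows ending in -ps were left out, and the choice used names only. The rule found 78 of the 19940 genes in the deposited table, 49 named Mrpl and 29 named Mrps. All 78 had a normalised count of at least 10 in at least 7 libraries, the filter that kept 12096 genes for testing. The normalised count is the deposited log2 value turned back to a linear scale, and it is scaled between libraries.

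RNA was sequenced from monocyte-derived macrophages sorted out of brain and spinal cord tissue during peak experimental autoimmune encephalomyelitis, a model of multiple sclerosis in mice. Lethally irradiated hosts carried a mixed graft, made of equal parts of marrow from wild-type (wt, CD45.1) and mCAT (CD45.2) donors, so both genotypes were exposed to one inflamed tissue. The mCAT donors were CCR2creERT2/+ mcat lsl/wt, which places a tamoxifen-inducible Cre recombinase at Ccr2 and a Cre-dependent catalase, directed to mitochondria, on 1 allele each. The wt donors are not labelled as carrying either allele, tamoxifen is given as the treatment of all 14 libraries, and no age is stated in the sources used here. Each genotype had 7 libraries, named wt 1 to wt 7 and mCAT 1 to mCAT 7. Recombination follows Ccr2 activity, and the share of mCAT cells that recombined was not analysed here. The labels do not say whether a library pools several hosts. The p-values below therefore describe the spread between these libraries.

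Mitochondrial ribosomes translate the few proteins encoded by mitochondrial DNA, all of them subunits of the respiratory chain complexes and of ATP synthase. Their RNA is made inside the organelle, whereas every one of their proteins is encoded in the nucleus, made in the cytosol and imported. Many of these proteins descend from those of bacterial ribosomes, and others were added in the mitochondrial lineage. Catalase breaks down hydrogen peroxide, a by-product of the respiratory chain, and macrophages change their use of that chain when they are activated.

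Promoter sequences are shown for the 3 genes whose window, from 250 bases before to 50 bases after the RefSeq start, held 2 kinds of the motifs searched. Among them are Mrpl33, which had the lowest log2 difference between genotypes, and Mrps27, which had the highest. The letters searched, on both strands, were GCATGCGC for nuclear respiratory factor 1 (NRF1), CCGGAAGT for the ETS family that includes GABPA, and AAGATGGC for YY1. NRF1 and GABPA are regulators of many nuclear genes for mitochondrial proteins. Capitals mark the matches on either strand, and NRF1 matches on the 2 strands overlap where GCATGCGC and its reverse complement share bases. Sequences are from RefSeq on GRCm38.p6, 5′ to 3′ along the gene: Mrpl33 at chr5:31613701-31614000 (plus strand), Mrpl32 at chr13:14612988-14613287 (minus strand) and Mrps27 at chr13:99344536-99344835 (plus strand).
Mrpl33: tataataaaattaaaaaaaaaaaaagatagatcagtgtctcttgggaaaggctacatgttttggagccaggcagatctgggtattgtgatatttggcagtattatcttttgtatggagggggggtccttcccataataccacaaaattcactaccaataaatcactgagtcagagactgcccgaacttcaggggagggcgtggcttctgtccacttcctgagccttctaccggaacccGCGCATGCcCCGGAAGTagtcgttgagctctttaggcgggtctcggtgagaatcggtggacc
Mrpl32: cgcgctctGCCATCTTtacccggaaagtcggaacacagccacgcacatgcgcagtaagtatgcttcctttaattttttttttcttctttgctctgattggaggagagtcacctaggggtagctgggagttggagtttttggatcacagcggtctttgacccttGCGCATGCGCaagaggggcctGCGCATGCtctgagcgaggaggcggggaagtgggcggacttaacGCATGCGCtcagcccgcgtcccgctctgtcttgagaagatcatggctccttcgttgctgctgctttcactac
Mrps27: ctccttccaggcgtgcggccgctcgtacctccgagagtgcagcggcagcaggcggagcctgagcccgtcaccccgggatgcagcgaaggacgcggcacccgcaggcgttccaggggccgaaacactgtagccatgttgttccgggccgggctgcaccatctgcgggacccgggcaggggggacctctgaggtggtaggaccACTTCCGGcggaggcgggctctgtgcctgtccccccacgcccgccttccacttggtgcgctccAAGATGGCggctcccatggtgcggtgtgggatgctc

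RefSeq held 75 promoters for 69 of the 78 genes. At least 1 of the motifs was found in 38.7% of them, against 8.83% of all 32851 promoters and 10.99% of the 21263 promoters of protein-coding genes. NRF1 letters were in 10.7% of the promoters of these genes (2.71% of all), ETS letters in 16% (3.89%) and YY1 letters in 16% (2.75%). The printed windows show how unlike the arrangements were: Mrpl32 had several NRF1 matches and a YY1 match, Mrpl33 an NRF1 and an ETS match side by side near the start, and Mrps27 an ETS and a YY1 match. A match describes letters only.

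The shallowest library was wt 7, at an estimated 16.7 M (mega) reads, and the deepest mCAT 1, at 47.0 M, with 11874 to 12780 genes at a normalised count of 10 or more. Cat, the mouse catalase gene, stood at 1042 to 2806 normalised counts in wt libraries and at 1739 to 3933 in mCAT ones, with a log2 difference of 0.39 and an adjusted p of 0.878 in limma. Within the pairs of libraries described below, Cat was higher in mCAT in 6 of 6 (2.74% of all genes were). With the pair as a block its log2 difference was 0.29 (SE 0.09, limma unadjusted p = 0.00644, adjusted p = 0.390). From which species the transgene comes is not stated here, so these values are no check of the label. The macrophage genes Csf1r (27045 to 78177 normalised counts) and Ly6c2 (54228 to 99620.5) were high in every library. They belong to a list of 10 macrophage markers. With the pair as a block, limma called 1 of the 10 lower in mCAT (adjusted p = 0.00587), where 0.322% of all genes were called. Without the block it called 0. A list of 8 microglia markers summed to 18622 to 81613 in wt and 28447 to 82648 in mCAT libraries.

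Most of the 78 transcripts were of middling to high abundance. Together they held 0.203% to 0.312% of the normalised counts of a library, with a mean of 0.273% ± 0.0246 for wt and of 0.239% ± 0.0256 for mCAT (SD, n = 7 each). Of the 78 genes, 73 had a mean above the median of all genes tested, which was 531 normalised counts. The median gene of the family averaged 1162. Mrps14, the counterpart of a bacterial small-subunit protein, had the highest mean (2637, from 1983 in mCAT 3 to 3319 in wt 6), followed by Mrpl4, Mrpl30, Mrpl42 and Mrps33 with means of 2489 to 2279. Mrps6 had the lowest mean, 210 normalised counts (147 to 324), and Mrps31, Mrpl53, Mrpl50 and Mrpl47 averaged 413 to 476. The order is that of counts, which rise with transcript length.

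Per kilobase of transcript the family spanned 142 to 3741 normalised counts, with a median of 814. Mrpl33 had the highest level on this scale (3741 ± 1084, SD over 14 libraries) and Mrpl42 the next (3574 ± 604), while Mrpl47, at the rim of the exit tunnel, had the lowest (142 ± 29.9). Mrpl33 and Mrpl42 differed by less than the SD of Mrpl33. Transcript levels per kilobase were thus not equal between the genes of the family. The transcript length used is that of 1 annotated transcript per gene, so this order depends on that choice.

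**Figure D1:**
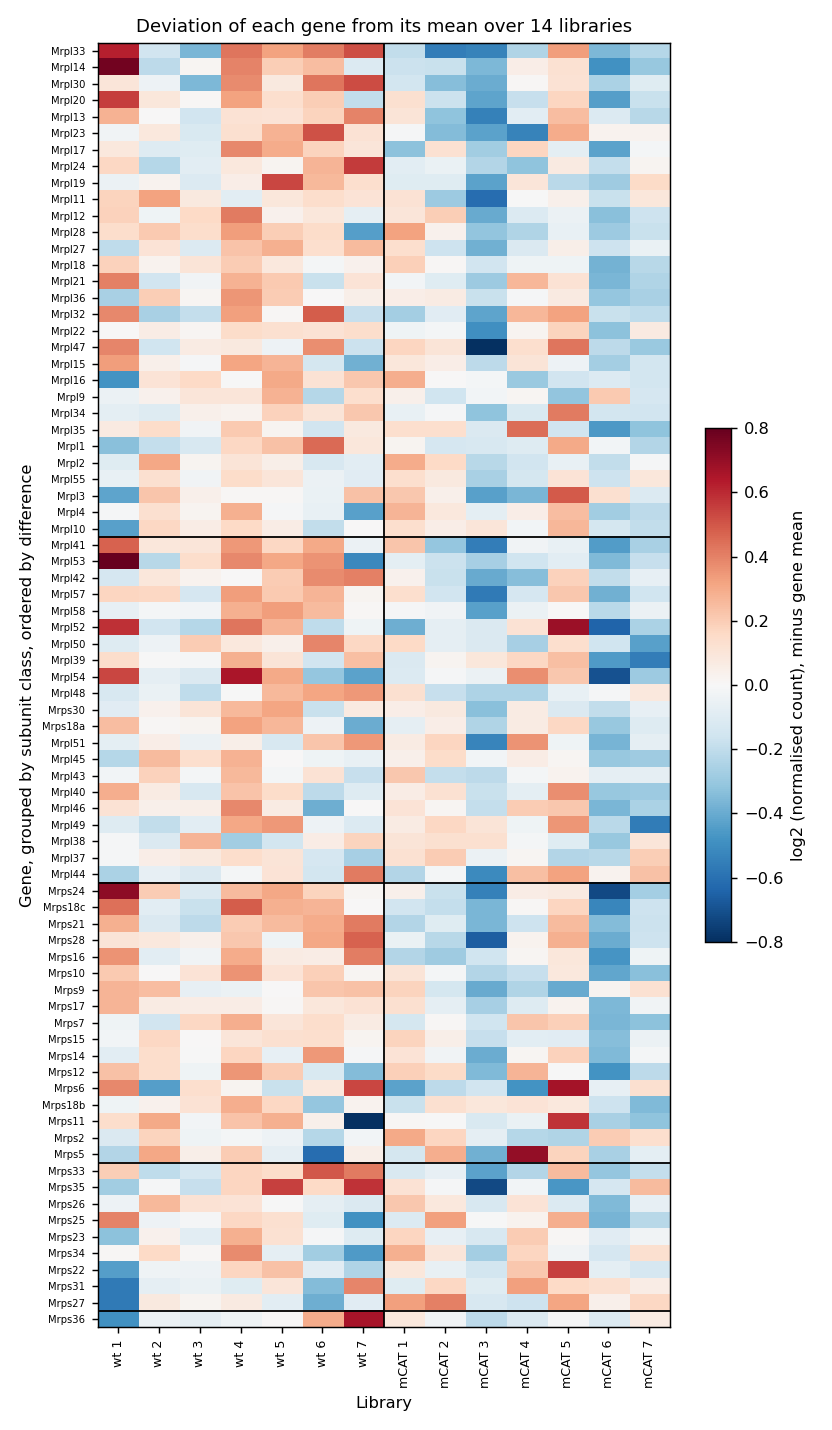
Heat map of the 78 genes (rows, grouped from top to bottom as large subunit with bacterial counterpart, large subunit mitochondria-specific, small subunit with bacterial counterpart, small subunit mitochondria-specific, and Mrps36; ordered within a group by log2 difference) in the 14 libraries (columns, wt left of the line). Colour is the log2 normalised count minus the gene's mean over the 14 libraries, and blue columns stand out for mCAT 3 and mCAT 6.

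The SD over the 14 libraries on the log2 scale had a median of 0.21 over the 78 genes, against 0.29 over all genes tested, whose median level was lower. Genes of like abundance were not compared. The highest library of a gene stood 1.32 to 2.71 times above its lowest, with a median of 1.77. Mrpl55, Mrps15 and Mrpl43 varied least (SD 0.12 to 0.14), and Mrpl33, Mrpl54 and Mrpl52 most (0.35 to 0.39). Much of the variation was shared between genes of the family. Library mCAT 3 was the lowest of all 14 for 27 of the 78 genes and mCAT 6 for 21, whereas wt 4 was the highest for 21.

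The shared part is seen in the mean deviation of the 78 genes from their own 14-library means. In wt libraries it was -0.02 in wt 3, 0.06 in wt 6 as the median and 0.18 in wt 4 (log2). In mCAT libraries it was -0.24 in mCAT 3, -0.02 in mCAT 2 as the median and 0.10 in mCAT 5. The genotypes overlapped, since mCAT 1, mCAT 4 and mCAT 5 lay among the wt libraries, while mCAT 2, mCAT 3, mCAT 6 and mCAT 7 lay below every wt library. The large and small subunits moved together: in mCAT 3 their mean deviations were -0.25 and -0.23, and in wt 4 they were 0.19 and 0.17. The median deviation over all genes tested lay between -0.01 and 0.01 in every library.

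**Figure D2:**
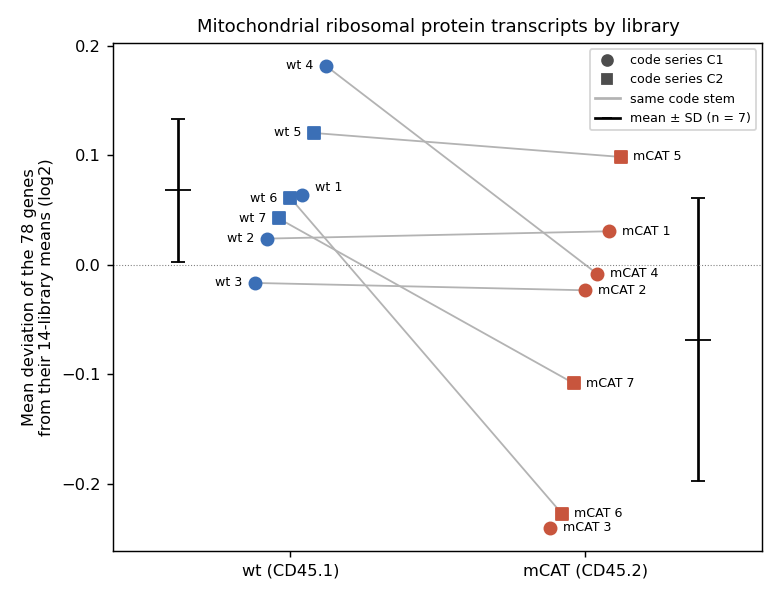
Mean deviation of the 78 genes from their 14-library means (log2, vertical axis) in each wt and mCAT library; circles are C1 and squares C2 libraries, lines join libraries with the same code stem, and the bars are the mean ± SD of 7 libraries. Library wt 4 is the highest at 0.18 and mCAT 3 the lowest at -0.24, and 3 of the 6 lines fall by 0.15 or more.

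The codes in the library descriptions share a stem, such as C1_2, between 1 wt and 1 mCAT library in 6 cases, and these were taken as pairs. The mean log2 difference of the 78 genes, mCAT minus wt, was 0.01 in C1_2, -0.01 in C1_3, -0.19 in C1_5, -0.02 in C2_1, -0.29 in C2_2 and -0.15 in C2_4. It was below 0 in 5 of the 6 pairs, with a mean of -0.11 ± 0.12 (SD, n = 6). Of the 78 genes, 67 were lower in mCAT within C1_5, 66 within C2_2 and 57 within C2_4, against 35, 39 and 37 within C1_2, C1_3 and C2_1. Of all genes tested, 50.9%, 49% and 49.6% were lower in the first 3 pairs named, and 49.4%, 48.5% and 51.5% in the other 3. Within pairs, the lower values in mCAT thus came mainly from 3 of the 6, and the other 3 were near 0. Library mCAT 3, the lowest of the 14, shares its stem with no wt library and is in no pair. Without it the median log2 difference of the family between genotypes was -0.10, and without the 4 libraries of stems C2_2 and C2_4 it was -0.10 as well, with 66 and 63 of 78 genes below 0. Both fits kept stem C1_5, and the second also kept mCAT 3. No fit left out C1_5, C2_2 and C2_4 together.

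The comparison of genotypes asked whether macrophages of the mCAT genotype held other amounts of these transcripts than wt macrophages of the same tissue. No single gene of the family passed the test. In limma 0 of 78 were called at an adjusted p of 0.05 (0.198% of all genes were), the smallest adjusted p was 0.878, and 15 had an unadjusted p under 0.05, all 15 of them lower in mCAT (3.03% of all genes were lower and 2.33% higher at this p). The log2 difference, mCAT minus wt, was below 0 for 66 of the 78 genes, or 84.6%, against 50.3% of all genes tested. Its median was -0.14 over the family and -0.0012 over all genes, and it ranged from -0.47 to 0.22.

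With the stem as a block, 0 of 78 were called (0.322% of all genes were), the smallest adjusted p was 0.386, 67 were below 0 (50.2% of all genes), and 11 had an unadjusted p under 0.05, all lower (4.24% of all genes were lower and 4.99% higher). With the number in the library names as the block, which joins the same libraries in 4 of 6 pairs, 0 of 78 were called (0.298% of all genes were), and the smallest adjusted p in limma was 0.244. The median was then -0.15, 70 were below 0 (48.7% of all genes), and 25 had an unadjusted p under 0.05, all lower (5.69% of all genes were lower and 4.5% higher). By stem, 4 of the 78 were lower in mCAT in 6 of 6 pairs (2.63% of all genes) and 24 in at least 5 (13.9%). None was higher in 6 of 6 pairs (2.74%), and for none did the genotypes not overlap (0.116% of all genes lower, 0.124% higher). The count of 15 fell to 5 without mCAT 6, to 8 without mCAT 3 and to 9 without wt 4 or wt 6. Of all 12096 genes, 303, 246, 338 and 274 were lower at this p in these fits, in that order, against 367 with every library. The count of 15 rose to 19 without mCAT 1, to 17 without wt 3 and to 16 without wt 2 or mCAT 5. Of all genes, 330, 405, 467 and 481 were lower there, in that order. Without any other single library the family count was 12 to 14. The count below 0 stayed between 65 and 70 when any 1 library was left out. With the stem block, the count of 11 lower genes was 2 without stem C2_2, 4 without C1_5 and 7 without C2_4. Of all 12096 genes, 337, 441 and 398 were lower at this p in these fits, in that order, against 513 with every stem. Without C1_2, C1_3 and C2_1 the count was 15, 11 and 14, where 519, 401 and 716 of all genes were lower. In bulk RNA, less of these transcripts per cell and fewer cells rich in them cannot be told apart.

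Most marker genes of lymphocytes also had log2 differences below 0, and limma called none of them. Of 10 T cell genes 9 were tested and 8 were below 0, with a median of -0.47, and 6 had an unadjusted p under 0.05, all 6 lower, where 3.03% of all genes were lower at this p. Their summed normalised count was 313 to 983 in wt and 191 to 525 in mCAT libraries, and none of the 10 was at 0 in all libraries. The B cell list had 5 of 5 tested genes below 0 (sums of 409 to 2137 in wt and 373 to 1415 in mCAT libraries). Estimated depth averaged 35.8 ± 9.55 M reads in wt and 41.8 ± 6.61 M in mCAT libraries (SD, n = 7 each). The part of these in the result was not tested.

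**Figure D3:**
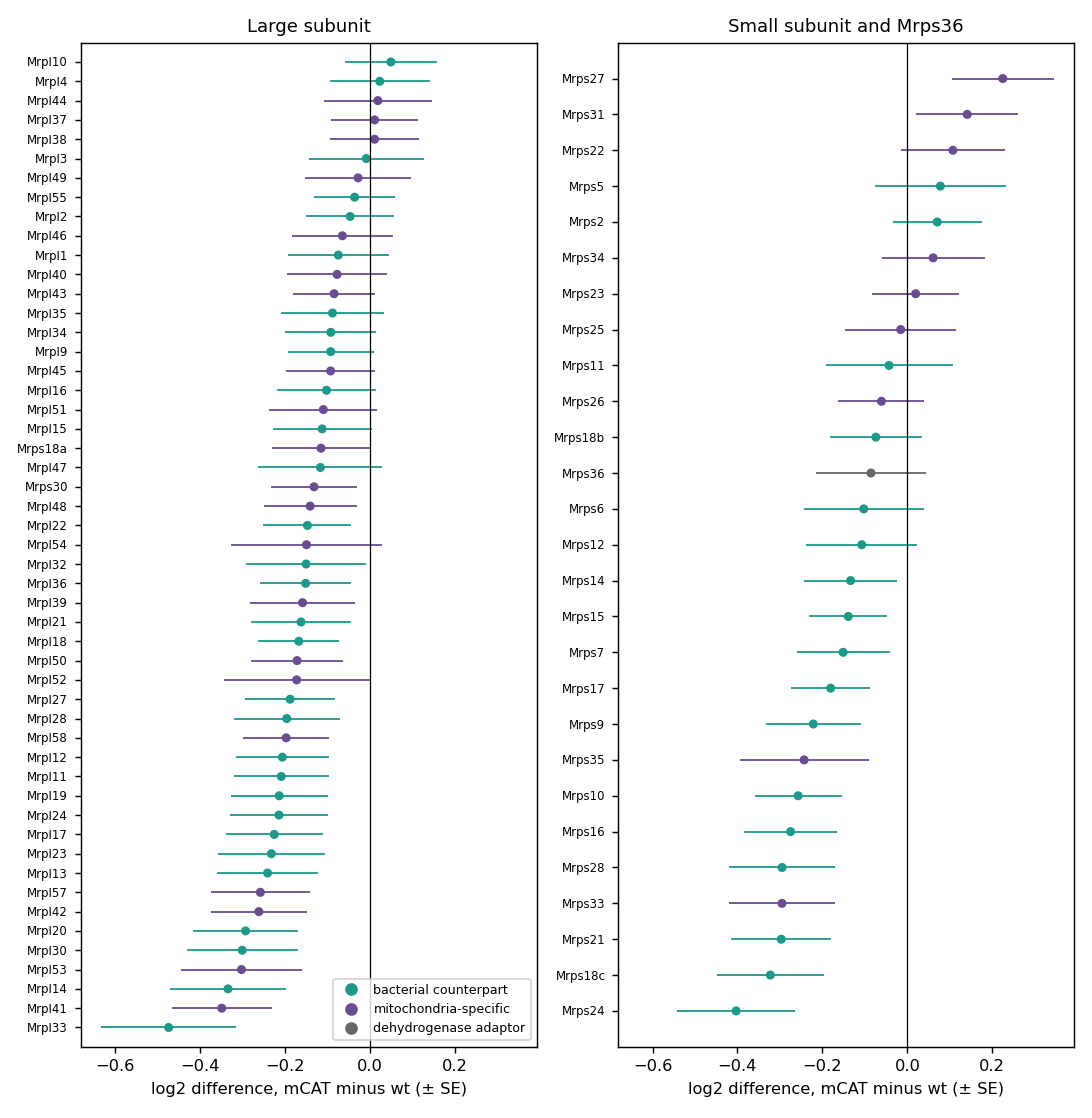
Log2 difference (mCAT minus wt, horizontal axis, ± SE from limma, n = 7 each) for each of the 78 genes, large subunit at left and small subunit with Mrps36 at right, ordered by value. Points run from -0.47 for Mrpl33 to 0.22 for Mrps27, and 66 lie left of 0.

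Among large-subunit proteins, Mrpl33, a small protein with a bacterial counterpart, had the lowest log2 difference. Its normalised count was 1336 at the lowest (wt 3), 2288 at the median and 2649 at the highest (wt 1) in wt, and 1171 (mCAT 2), 1459 and 2173 (mCAT 5) in mCAT libraries. Libraries wt 2 and wt 3 lay among the mCAT values, the other 5 wt libraries stood at 2146 or above, and mCAT 5 was the single mCAT library that reached them. The log2 difference was -0.47 (SE 0.16, unadjusted p = 0.00793, limma adjusted p = 0.878), lower in 5 of 6 pairs. Mrpl41, a protein of the mitochondrial lineage only, ran from 690 to 988 in wt (median 799) and from 487 to 831 in mCAT libraries (median 597). Most mCAT libraries lay below most wt libraries, but mCAT 1 reached the upper wt values (log2 difference -0.35, SE 0.12).

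Mrpl14 sits at the face that meets the small subunit and is bound there by the assembly factor Malsu1 until the large subunit is finished. It ran from 796 to 1571 in wt (median 1052) and 656 to 1001 in mCAT libraries (median 811), a log2 difference of -0.33 (SE 0.14). The highest value was that of wt 1, and the ranges overlapped. Malsu1 itself had a mean of 509 ± 108 for wt and 370 ± 98.3 for mCAT, with a log2 difference of -0.38 (SE 0.14, limma adjusted p = 0.878).

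Among small-subunit proteins the same direction was seen for Mrps24, the counterpart of the bacterial protein that lines the entry channel of the messenger RNA. It ran from 1155 (wt 3) to 2052 (wt 1) in wt, median 1438, and from 759 (mCAT 6) to 1313 (mCAT 5) in mCAT libraries, median 1105. Within pairs its log2 difference was -0.80 to -0.06, below 0 in 6 of 6, and over all libraries it was -0.40 (SE 0.14, limma unadjusted p = 0.00988). The mCAT values lay inside or below the wt range, and 4 of 7 were below the lowest wt library. Mrps18c, whose bacterial counterpart lies on the platform of the small subunit, was likewise lower in 6 of 6 pairs (log2 difference -0.32, SE 0.13), at 1373 to 2171 in wt and 1081 to 1753 in mCAT libraries.

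The other small-subunit genes named by their p-value were Mrps21, Mrps10 and Mrps16, all 3 with bacterial counterparts. Mrps21 ran from 1172 to 1810 in wt (median 1615) and from 1052 to 1613 in mCAT libraries (median 1202). For Mrps10 the ranges were 1167 to 1495 and 875 to 1254, and for Mrps16 they were 937 to 1317 and 718 to 1059. Their log2 differences were -0.30, -0.26 and -0.28, each lower in 5 of 6 pairs, and each pair of ranges overlapped. Besides Mrps24 and Mrps18c, the genes lower in 6 of 6 pairs were Mrps9, with a bacterial counterpart, and Mrpl42, of the mitochondrial lineage. Mrpl42 ran from 2137 to 3103 in wt and from 1773 to 2672 in mCAT libraries.

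The 12 genes with log2 differences above 0 were led by Mrps27, a protein of the mitochondrial small subunit with the pentatricopeptide repeats of RNA-binding proteins. Its normalised count was 357 (wt 1) to 558 (wt 2) in wt, median 499, and 472 (mCAT 4) to 700 (mCAT 2) in mCAT libraries, median 594. The ranges overlapped, 4 of the 7 mCAT libraries lay above every wt library, and 5 of 6 pairs were higher in mCAT. The log2 difference was 0.22 (SE 0.12, limma unadjusted p = 0.0779, adjusted p = 0.878). Mrps31, also of the mitochondrial lineage, followed at 0.14 (SE 0.12), with 275 to 534 in wt and 380 to 511 in mCAT libraries.

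Of the other genes above 0, Mrps22 (0.11), whose human form is known from a respiratory chain disease, Mrps5 (0.08), Mrps2 (0.07) and Mrps34 (0.06) belong to the small subunit. Mrpl10 (0.05), which anchors the stalk, and Mrpl4 (0.02), which lines the exit tunnel, belong to the large one. Their SEs were 0.11 to 0.16, larger than the value itself for all 6. The sign of each of these 6 differed under at least 1 other setting, and Mrpl10 stood at -0.02 with the stem as a block.

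By subunit class, the large-subunit genes with bacterial counterparts had log2 differences below 0 in 28 of 30 cases (median -0.16), and those of the mitochondrial lineage in 18 of 21 (median -0.13). Small-subunit genes with bacterial counterparts were below 0 in 15 of 17 cases (median -0.15). Mrps18b (-0.07) was counted among these, but Mrps18a (-0.12) among the large-subunit genes of the mitochondrial lineage. The counts by class depend on such choices. The small-subunit genes of the mitochondrial lineage stood apart in count: 4 of 9 were below 0, with a median of 0.02. They include Mrps27, Mrps31 and Mrps22, but also Mrps33 (-0.30) and Mrps35 (-0.24). The coding lengths of these genes, in that order, are 1245, 1152, 1077, 318 and 960 bases. The part of coding length, described below, in the values of this class was not tested. The classes were not tested against each other. Mrps36, which keeps its ribosomal name but is known as an adaptor of the alpha-ketoglutarate dehydrogenase complex, was at -0.09 (SE 0.13).

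At 3 functional sites of the large subunit most genes had log2 differences below 0. In the stalk, which recruits translation factors, Mrpl12 ran from 1726 to 2427 normalised counts in wt and 1374 to 2086 in mCAT libraries (log2 difference -0.21), and its neighbour Mrpl11 from 844 to 1117 and 586 to 967 (-0.21). Mrpl53, close to the stalk base, ranged widely in wt, from 301 in wt 7 to 770 in wt 1, and narrowly in mCAT libraries, from 336 to 407 (-0.30). Mrpl54 (-0.15) and Mrpl10 (0.05) complete the list, so 4 of 5 were below 0. The mCAT range lay inside the wt range for Mrpl53 and overlapped it for the others.

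The exit tunnel rim is where new proteins leave towards the inner membrane, to which Mrpl45 tethers the ribosome. All 6 of its genes were below 0: Mrpl23 (-0.23), Mrpl17 (-0.23), Mrpl24 (-0.21), Mrpl22 (-0.15), Mrpl47 (-0.12) and Mrpl45 (-0.09). Mrpl47 was 0.03 with the block, so the direction held for 5 of 6 there. In the central protuberance, which faces the transfer RNAs, 5 of 6 were below 0, from Mrpl58 (-0.20), a protein with peptidyl-tRNA hydrolase activity, through Mrpl52 (-0.17), Mrpl48 (-0.14), Mrpl40 (-0.08) and Mrpl46 (-0.06) to Mrpl38 (0.01). None of these 17 genes passed the limma test.

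The log2 difference moved with the length of the coding sequence, in these genes and in all others. Coding lengths of the 78 genes were 195 to 1326 bases with a median of 582, shorter than the median of 1344 over the genes tested, of which 97.5% had a length. Among the 1602 other genes of up to 600 bases the median log2 difference was -0.10 and 73.8% were below 0, against 0.02 and 45.6% among the 10117 longer ones. Among the 78, 40 of 41 genes of up to 600 bases were below 0 (median -0.17), and 26 of 37 longer ones (median -0.09). Of the 11 genes over 1000 bases, 5 were below 0 with a median of 0.01, beside 43.2% and 0.03 for the 7833 other genes of that length. By transcript length the longer genes of the family did not follow the others: 7 of 8 genes of 2000 to 3000 bases were below 0 (median -0.17), 13 of 14 of 3000 to 5000 (-0.11) and 3 of 3 above that (-0.18). Other genes of these lengths were below 0 in 40.9%, 37.9% and 54.8% of cases (medians 0.03, 0.06 and -0.02). Mrpl33, with the lowest log2 difference, has the shortest coding sequence (195 bases), and Mrps27, with the highest, one of 1245 bases.

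**Figure D4:**
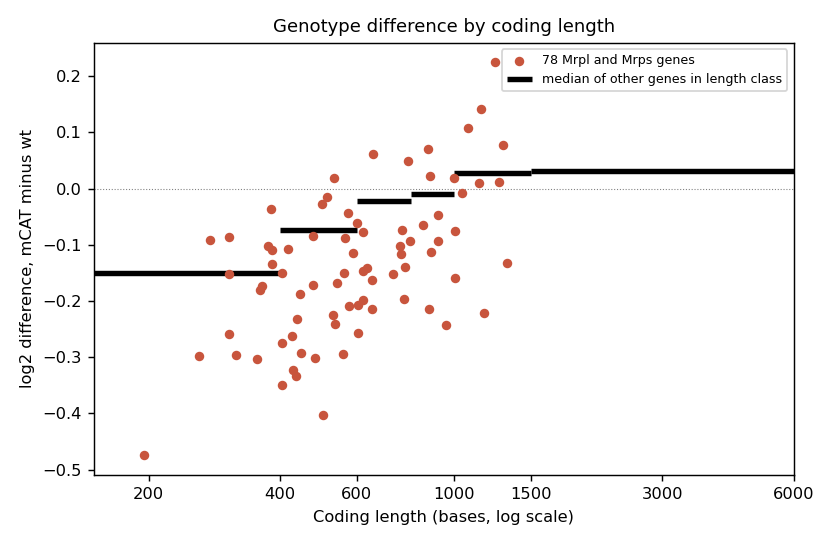
Log2 difference (mCAT minus wt, vertical axis) against coding length in bases (horizontal, log scale); points are the 78 genes and black bars the median of all other genes tested in 6 length classes. The bars rise from -0.15 at up to 400 bases to 0.03 above 1500, and 66 of the 78 points lie below 0.

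Short genes outside the family followed the same libraries. Their median deviation was lowest in mCAT 3 (-0.18) and mCAT 6 (-0.11), as for the family, and highest in wt 7, wt 4 and mCAT 5 (0.12, 0.12 and 0.11). In those 5 libraries the family stood at -0.24, -0.23, 0.04, 0.18 and 0.10. With the trend on coding length subtracted, the median log2 difference of the family was -0.09 and 60 of 78 genes were below 0, and with the stem as a block as well it was -0.08 with 54 below 0. With the trend on transcript length subtracted it was -0.08 with 53 below 0. Of all 11797 genes in these 3 fits, 50.3%, 49.9% and 49.6% were below 0. In limma 0 of 78 genes were called, against 21, 36 and 20 of all genes. An unadjusted p under 0.05 was found for 6, 4 and 8 of the 78, of which 6, 4 and 7 were lower. Of all genes, 556, 1047 and 511 had such a p, of which 280, 465 and 279 were lower.

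Other genes of mitochondrial protein synthesis did not all follow the direction of the ribosomal proteins, and none of their tested genes was called by limma between genotypes in either fit. The coding lengths of these lists were not compared with those of the family. The part of coding length, described above, in the values of these lists and of those below was not tested. The 5 ribosomal proteins without an Mrp name were closest: 4 were below 0 (median -0.12), led by Chchd1, at 1142.5 ± 279 in wt and 857 ± 154 in mCAT libraries (-0.36, SE 0.14). Translation factors were evenly split, 7 of 14 below 0 (median 0.01). They ran from Mtrf1, a release factor relative (-0.28), to Tufm, the factor that brings transfer RNAs to the ribosome (0.21, SE 0.13). Assembly factors were below 0 in 9 of 24 cases (median 0.01), from Malsu1 (-0.38) to Gtpbp10 (0.22), a GTPase that acts on the large subunit. With the stem as a block, 13 of the 24 assembly factors were below 0 (median -0.01), and translation factors stayed at 7 of 14.

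The aminoacyl-tRNA synthetases, which charge transfer RNAs in mitochondria, were below 0 in 4 of 22 cases (median 0.07). With the stem as a block they were below 0 in 8 of 22 (median 0.02). Vars2, for valine, averaged 52.4 ± 22.1 in wt and 91.4 ± 38.8 in mCAT libraries (0.36, SE 0.16, limma adjusted p = 0.878), and was higher in mCAT in 6 of 6 pairs. Among genes of mitochondrial transcription and transcript stability, 6 of 14 were below 0 (median 0.06), or 8 with the block (median -0.02). Their extremes were the partners Lrpprc and Slirp, which together bind and stabilise mitochondrial messenger RNAs. Lrpprc ran from 480 to 844 in wt and from 576 to 1419 in mCAT libraries (0.42, SE 0.17, higher in 6 of 6 pairs), and Slirp from 1047 to 2196 and from 1075 to 1720 (-0.29, SE 0.16). Both pairs of ranges overlapped.

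The messenger RNAs that these ribosomes translate were below 0 in 12 of 12 tested cases, with a median of -0.42, which was -0.20 with the stem as a block. The most abundant of them, COX1, ran from 116205 to 413876 normalised counts in wt and from 58330 to 213804 in mCAT libraries, and was higher in mCAT in 2 of 6 pairs. The ranges overlapped, and the smallest adjusted p of the list was 0.878 in limma. These 12 come from 1 genome and are cut from shared precursors, so they are not independent. Of the 10 transcription factors of nuclear mitochondrial genes 7 were below 0 (median -0.05), among them Sp1 (-0.29), with Gabpa, the ETS factor named above, at 0.15 and Nrf1 at -0.01.

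**Figure D5:**
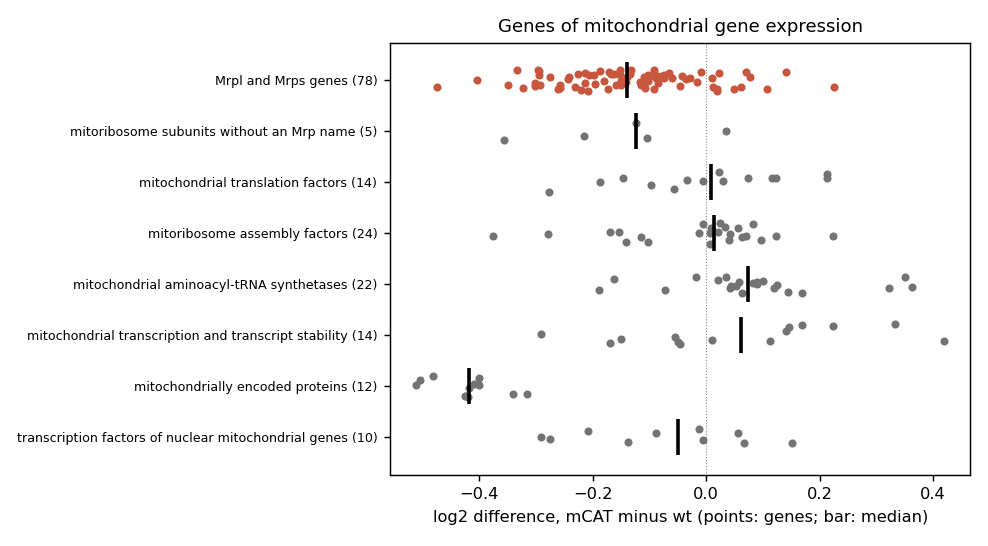
Log2 difference (mCAT minus wt, horizontal axis) of each tested gene in the family and in 7 lists of mitochondrial gene expression, with the number of genes in brackets and a bar at each median. The medians run from -0.42 for mitochondrially encoded proteins to 0.07 for aminoacyl-tRNA synthetases, with the ribosomal family at -0.14.

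Many of these genes share a start region with a gene read in the opposite direction. Per GENCODE M21, an annotation of GRCm38 and not of the build of the deposited values, 22 of the 78 had such a partner within 1000 bases. Mrps11 and Mrpl46, 1 of each subunit, start 30 bases apart and had log2 differences of -0.04 and -0.06. Mrpl43 starts 116 bases from Twnk, the helicase of mitochondrial DNA replication, and Mrps12 starts 232 bases from Sars2, the mitochondrial synthetase for serine. The values were -0.08 for Mrpl43 and 0.23 for Twnk, -0.11 for Mrps12 and 0.17 for Sars2. Mrpl14 (-0.33) starts 63 bases from Tmem63b (0.23), and Mrps27 (0.22) starts 81 bases from Ptcd2 (-0.05). Every partner except Lrrc46, beside Mrpl10, could be tested, and none was called by limma in either fit.

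Some values depend on how reads were shared out. The exons of 28 of the 78 genes overlap those of another gene, in 24 cases on the opposite strand, and the Smart-seq2 protocol named in the labels keeps no strand. Mrps25 overlaps Nr2c2 over 75.6% of its transcript and Mrps34 overlaps Mapk8ip3 over 62.7%, so their values are uncertain. On the same strand, Mrpl33 shares 37.0% of its transcript with Gm43809 and Mrps18c shares 27.3% with Gm43511. On the opposite strand, Mrps18b shares 59.1% with Gm16279 and Mrps27 shares 22.6% with 6430562O15Rik. These overlapping genes are not in the deposited table, and the part of the overlaps in the values was not tested. Mrpl44 (0.02) shares 126 bases with Wdfy1, which stood at 2087 ± 333 normalised counts for wt and 736 ± 285 for mCAT (log2 difference -1.42, limma adjusted p = 0.000737). Mrpl53 lies whole within the exons of Gm42688, on the same strand. A near-identical pseudogene at another place in the genome was found for 6 genes, Mrpl22, Mrpl23, Mrpl27, Mrpl42, Mrps10 and Mrps21, so their values are uncertain too. The pseudogene Mrpl23-ps1, with 100% identity over 78.03% of the Mrpl23 transcript, was listed at 1559 ± 280 in wt and 1370 ± 207 in mCAT libraries, above Mrpl23 itself at 682.2 and 568.3, so the level of Mrpl23 is uncertain. No gene of the family lies within 10 Mb of Ptprc, which carries the CD45 alleles, or of Ccr2. Mrpl44, and with it the overlapping Wdfy1, lies 58.3 Mb from Ptprc, so a called difference was seen outside this window. The genotypes also differ in donor background (CD45.1 or CD45.2) and in the allele at Ccr2. In this design these cannot be told apart from the catalase allele.

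The library codes also begin with C1 (8 libraries of 5 stems) or C2 (6 libraries of 3 stems), and the labels do not say what this marks. The family showed no common direction between them. In limma, with the genotype as a covariate and the stem as a random block, 0 of 78 genes were called, against 2.71% of all genes, 41 were below 0 (52.6%, against 51% of all genes), and the median log2 difference, C2 minus C1, was -0.02. Only 3 had an unadjusted p under 0.05, all higher in C2 (9.09% of all genes were higher and 8.01% lower at this p), and the smallest adjusted p was 0.244.

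Those 3 were Mrpl23, Mrpl48 and Mrpl42. Mrpl23 ran from 423 to 672 normalised counts in C1 libraries (median 584) and from 625.4 to 873.7 in C2 libraries (median 705), a log2 difference of 0.31 (SE 0.14, limma adjusted p = 0.244). Mrpl48, in the central protuberance, ran from 1135 to 1471 and from 1294 to 1716 (0.26, SE 0.12), and Mrpl42 from 1773 to 2498 and from 2050 to 3103 (0.27, SE 0.13). The series overlapped for all 3. On the lower side Mrpl54 had the lowest value, -0.34 (SE 0.18), with 1561 to 2670 in C1 and 1043 to 2089 in C2 libraries, followed by Mrpl35 (-0.25), Mrps12 (-0.23), Mrpl4 (-0.20) and Mrps26 (-0.17). The others named by their p-value were Mrps36 (0.26) and Mrpl44 (0.25). Of the macrophage and microglia markers, Ms4a7, Lyz2, Olfml3 and Gpr34 were higher in C2 libraries (limma adjusted p = 0.000103 to 0.00443). These were 2 of 10 tested macrophage and 2 of 7 tested microglia markers. Of all 12096 genes, 194 were called higher and 134 lower. All 3 tested neutrophil markers were below 0, and 1 was called lower (limma adjusted p = 0.0261).

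Whether the genotype difference itself differed between C1 and C2 pairs was tested within the 6 pairs. In limma 0 of 78 genes were called (0% of all 12096 genes were), and 2 had an unadjusted p under 0.05, both below 0 (1.17% of all genes were below and 1.46% above). The interaction was below 0 for 55 of 78 genes, against 48.4% of all genes, with a median of -0.10. Mrps35, a small-subunit protein of the mitochondrial lineage, had log2 differences of 0.11, 0.15 and -0.17 in C1_2, C1_3 and C1_5, and of -0.88, -0.26 and -0.29 in C2_1, C2_2 and C2_4. Its interaction was -0.51 (SE 0.22, unadjusted p = 0.0403, adjusted p = 0.9997 in limma). Mrpl51 followed at -0.46 (SE 0.21), with 0.01, 0.21 and 0.29 in the C1 pairs and 0.09, -0.55 and -0.39 in the C2 pairs, then Mrpl35 (-0.39) and Mrps36 (-0.34). With 3 pairs on each side, C2_2 and C2_4 were lower than every C1 pair for Mrps35 and Mrpl51, while C2_1 was the lowest pair for Mrps35 and within the C1 range for Mrpl51.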

How the data were processed

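Polyadenylated RNA of 14 libraries (7 wt, 7 mCAT) was prepared with Smart-seq2, per the labels' protocols. The submitters' processing notes name FastQC, fastp, Salmon and GRCm39; versions, annotation and filters are not stated. The deposited values are titled raw counts but lie on a log2 scale, per the values themselves (lowest value 5.96 in all 14 libraries), so the log2 values the authors deposited were tested directly. Their variance-stabilising form was inverted to a normalised count. Of the low counts, 52.1% to 73.4% in a library fell within 0.15 of whole reads, so whole reads were not recovered and depth is a rough estimate that covers counting error only.

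The 12096 genes with a normalised count of at least 10 in at least 7 libraries were tested with limma 3.58.1 (mean-variance trend, robust moderation, statmod 1.5.0) in R 4.3.3. P-values were 2-sided and Benjamini-Hochberg adjusted over all of them, with a threshold of 0.05. Differences are mCAT minus wt without pairing, C2 minus C1 with genotype as covariate and stem as random block (consensus correlation 0.463), and their interaction within pairs. The fits were tested on simulated data. The differences added there were larger than any of this family between genotypes, so the simulation does not cover differences of that size. Code stems were taken to pair libraries because deviations from the group means correlated in all 6 stems (0.232 to 0.659), though over the 78 genes alone C2_1 was at -0.09. Title numbers 2 to 7 join the same libraries in 4 of 6 pairs and correlated too (0.158 to 0.641); 11 of 12 libraries correlated best with their stem partner and 7 with their number partner. The labels do not state a shared host. Overlaps, copies (BLAST 2.17.0, at least 95% identity over at least 50% of a transcript) and lengths came from GENCODE M21.

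Named were, by p-value, 8 genes in each direction between genotypes, 5 in each direction between code series and 4 for the interaction, the 5 highest and lowest means, the 3 largest and smallest SDs, all genes of the 3 sites, and 1 gene in each direction of each pathway list. The members, lists and tests were chosen with earlier results of these data known. The split by coding length was added after seeing the data. Alternatives were other scalings, filters, blocks, weights and left-out libraries.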

Additional observations from a re-analysis of the deposited data

Results flagged for a closer look

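In a group of 7 libraries, 1 value stood far from the others in 3 of the 98 sets examined (48 named genes and the family mean, in each genotype); chance flags about 1 in 20. All 3 were high values of library mCAT 5. Mrpl33 stood at 2173 normalised counts there, against 1171 to 1503 in the other mCAT libraries. Mrps21 stood at 1613, against 1052 to 1267. Mrps6 stood at 324, against 147 to 223. Without mCAT 5, the median log2 difference of the family between genotypes was -0.18, compared with -0.14 over all 14 libraries, and 0 of 78 genes were called in limma.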

How the results depend on the processing

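Under every alternative 0 of the 78 genes were called between genotypes, between code series or for the interaction. The number of all genes called moved more. Between genotypes it was 24, and 39 with the stem as a replicate block, 40 with this block and libraries centred on the median, 15 in C1 and 9 in C2 libraries alone; leaving out 1 library gave 18 to 25, and 1 pair with the block 28 to 37. Between code series it was 328, and 903 without the block and 33 on the mean of each stem; leaving out 1 library gave 186 to 507 and 1 stem 55 to 1170. The interaction called 0 genes, and 1 on log2(normalised count + 1). Of the values of named genes, 566 kept their sign between genotypes, 26 did not, and all 280 between code series and 8 for the interaction did. Those that changed were near 0: Mrps22 was -0.00036 with array weights; Mrps2 was -0.0036 without stems C2_2 and C2_4; Mrps34 was -0.060 in C1 libraries, -0.040 without C2_2 and C2_4 and -0.0041 without wt 1 and wt 7. Mrpl10 was -0.023 with the stem block (-0.043 centred, -0.0020 with the length trend subtracted), -0.029 with title numbers as replicate block, -0.022 with array weights and -0.020 without wt 1 and wt 7. Mrpl4 was -0.018 with title numbers as block, -0.0089 with array weights, -0.023 in C1 libraries and -0.057 without wt 1 and wt 7. Leaving out 1 library gave -0.020 to 0.14 for Mrps5, -0.012 to 0.084 for Mrpl10 and -0.044 to 0.070 for Mrpl4. With the block, Mrpl10 was -0.022, -0.026, -0.066 and -0.038 without C1_2, C1_3, C2_1 and C2_2, and Mrpl4 was -0.0040 without C2_1. The causes were not tested. The alternatives on length, on left-out pairs with the block, and without C2_2 and C2_4 or wt 1 and wt 7 were chosen after seeing the data. Depth was lowest in wt 7, without which 21 of all genes were called between genotypes.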
